A study of Saccharomyces cerevisiae with 20 samples.

Results

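The levels of 34 genes for heat shock proteins, molecular chaperones and their co-chaperones were compared across 5 laboratory strains of the budding yeast Saccharomyces cerevisiae. The genes were taken as a list of systematic names that covers the HSP genes, the SSA, SSB and SSE families, HSP90 with its partners, and the transcription factor gene HSF1. All 34 were among the 7127 genes in the count table, and all 34 passed the filter on low counts that left 6119 genes for testing. They took 0.635% to 2.41% of the reads in a library, with a median of 1.23%.

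Each strain had 4 libraries. BY4741 is mating type a and carries his3Delta1, leu2Delta0, met15Delta0 and ura3Delta0. CEN.PK2 is mating type a, carries MAL2-8c and SUC2, and has the marker alleles trp1-289, his3Delta1, ura3-52 and leu2-3_112. D273-10B is mating type alpha and labelled mal. RM11-1a is mating type a with leu2Delta0, ura3Delta0 and HO::kanMX. W303 is mating type a with can1-100 and the marker alleles his3-11,15, ura3-1 and trp1-1, besides a mutant allele of leu2. All strains were grown without treatment at 30 degrees C in synthetic complete medium with glucose and harvested in early exponential phase, at an optical density of 0.8 to 1.1. No culture was heat-shocked, so the levels are those of growing cells. The labels do not say which libraries came from separate cultures, so p-values measure the spread between libraries, which may be partly technical. Column names give RM11-1a replicates 1 and 2 the same replicate number, and replicates 3 and 4 another. If each of these pairs came from 1 culture, RM11-1a has fewer than 4 independent replicates.

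Chaperones bind unfolded or partly folded proteins and help them fold, stay soluble or be broken down. In yeast the constitutive members, such as Ssa1, Ssa2, the Ssb proteins and Hsc82, serve newly made proteins in growing cells, while inducible relatives are made on stress. Transcription of many of these genes is driven by Hsf1, which binds heat shock elements, and of the general stress genes by Msn2 and Msn4, which bind stress response elements. The promoter letters below are those of the S288C reference, the background of BY4741, and were not read in the other strains.

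In the 500 bases before the start codon, a heat shock element of 3 units (GAA and TTC in turn, with any 2 bases between neighbours, searched on both strands) was found for 14 of the 34 genes, or 41.2%, against 1.5% of 6000 promoters. A 2-unit element (GAANNTTC or TTCNNGAA, contained in the longer one) was found for 27 of the 34 and in 35.2% of all promoters. A stress response element (AGGGG, or CCCCT on the other strand) was found for 14 of the 34 and in 34.1% of all promoters. The sites below are shown because the first 3 genes are those with a 3-unit element that differed among the strains, and the next 2 are constitutive genes that carry such an element and were not past the threshold. Capitals mark the element, each line reads 5′ to 3′ on the gene's strand, and positions are on the R64 build. Where elements overlapped, the one farthest from the gene is shown.
HSP104, chrXII:88313-88341, plus strand: atatatttTTCCAGAATTTTCtagaaggg
HSP42, chrIV:806370-806398, plus strand: cttaaaagTTCTGGAAGGTTCgcgaattg
BTN2, chrVII:772102-772130, plus strand: acttttttTTCTAGAAAGTTCcggaaaat
SSA2, chrXII:97698-97726, minus strand: aagtttttTTCTAGAACATTCcatcgaag
SSE1, chrXVI:352441-352469, minus strand: gaagatgaTTCTAGAAGATTCcttttcca

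HSP12, the gene whose level varied most, has no heat shock element in this window by these letters and the most stress response elements of the 34 genes, 5. They are shown with 8 bases on either side, the element in capitals, all from the plus strand.
HSP12 site 1, chrVI:106813-106833: atctgttaAGGGGatatgttg
HSP12 site 2, chrVI:106834-106854: caacttgcAGGGGgcggcaca
HSP12 site 3, chrVI:106871-106891: tagtaaagAGGGGaaaaggaa
HSP12 site 4, chrVI:107016-107036: atctacagCCCCTggaaaatc
HSP12 site 5, chrVI:107058-107078: cggtcgtcCCCCTcttgatct
A 3-unit heat shock element was found for 3 of the 9 genes that differed among the strains and 11 of the 25 that were not past the threshold. A stress response element was found for 4 of the 9 and 10 of the 25. A match describes the reference letters and does not show that a factor binds there.

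Total counts per library ran from 1311322 to 22979469. STE2 and MF(ALPHA)1, genes of mating types a and alpha, followed the labels in all 20 libraries. LEU2 had 0 counts in all 8 libraries labelled as deleted for it. HO went against its label in 1 library: the library labelled RM11-1a replicate 2 had 408 counts of HO, or 58.6 CPM (counts scaled to a common library size, with sizes adjusted by the TMM method), and RM11-1a replicates 1, 3 and 4 had 2, 1 and 2 counts. Values of RM11-1a without that library stand beside the main results for that strain. Library numbers start with 66, 69 or 74, and the 3 numbered from 74 are RM11-1a replicates 3 and 4 and CEN.PK2 replicate 4. The slope of a library's levels against gene length also varied, from -0.33 to 0.42 log2 units per doubling of exon length.

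Of the 34 genes, 9 differed among the 5 strains at a threshold of 0.05 on the adjusted p (edgeR's quasi-likelihood test, Benjamini-Hochberg adjustment over all genes tested). Over the 6119 genes tested, 28.4% did, so the share of these genes, 26.5%, was near that of all genes. The 9 were HSP12, HSP31, BTN2, CUR1, SSA3, HSP30, HSP42, HSP104 and HSF1. Of these, HSP12, HSP31, BTN2, CUR1 and HSP30 kept the call under all 33 alternatives and HSF1 in 17. HSP42 lost it with the library series as a block, which left 8 genes, and without RM11-1a replicate 3, RM11-1a replicate 4 or the libraries numbered from 74. Summing RM11-1a replicates 3 and 4, whose column names share a replicate number, left 7 genes, without HSP42 and HSF1. SSA4, HSP82, SSE2 and HSP26, which are also made on stress, were not past the threshold by edgeR. None of SSA1, SSA2, SSB1, SSB2, HSC82, SSE1, HSP60 or YDJ1, which are abundant constitutive chaperones, was past it either. Per kilobase of exon, the median level of the 9 was 35.8 CPM and that of the other 25 was 101 CPM. Leaving out the library labelled RM11-1a replicate 2 gave 10, all 9 among them, with SSE2 added. Without D273-10B replicate 1 it was 21, with all 9 among them and SSA2, SSB1, SSB2, SSE1 and YDJ1 among those added. Without D273-10B replicate 2 it was 6, from which HSP104, SSA3 and HSF1 were missing. D273-10B replicate 1 is the only library of its strain numbered from 66, so library and series cannot be told apart there. The share of all genes called without that library is not given here.

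**Figure D1:**
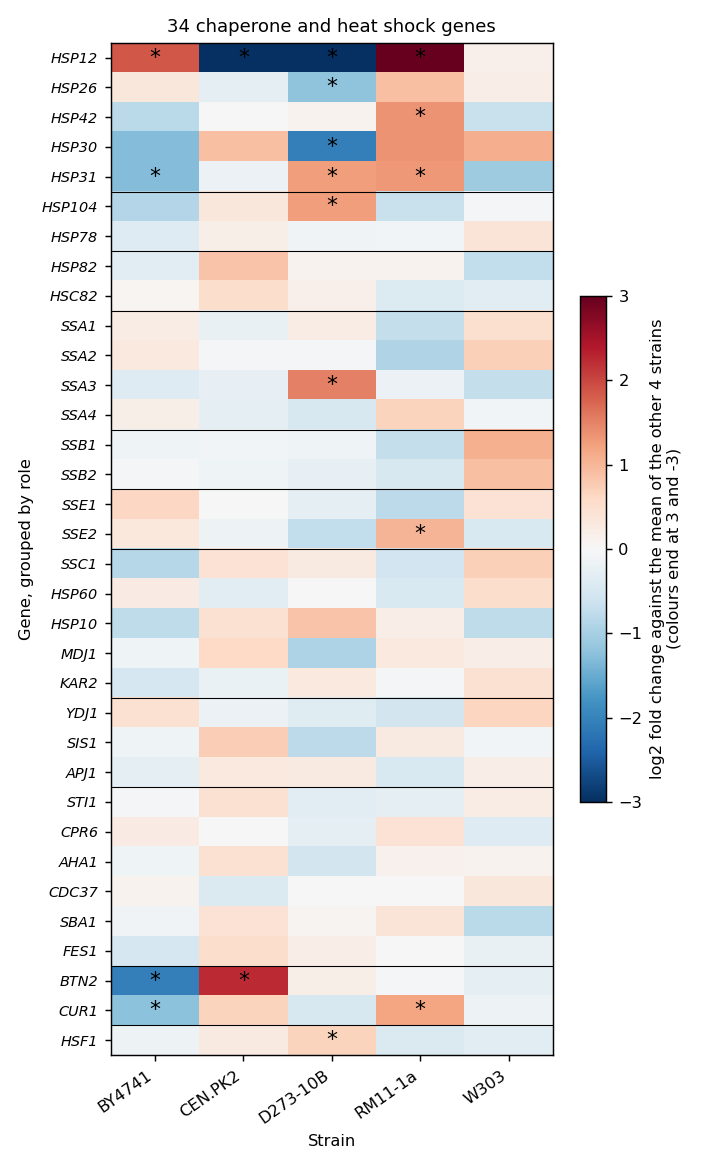
Log2 fold change of each of the 34 genes in each strain relative to the other 4 strains' mean, from red (higher) to blue (lower), with lines between roles. Asterisks mark an edgeR adjusted p under 0.05. The HSP12 row holds the strongest colours, and the W303 column has no asterisk.

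HSP12 (YFL014W, chromosome VI, 107256 to 107585, plus strand, a single exon) encodes a small intrinsically disordered protein that associates with membranes under stress. In D273-10B its level was 3.17, 3.77, 6.97 and 5.56 CPM in replicates 1 to 4. In CEN.PK2 it was 10.1, 15.3, 10.8 and 24.3 CPM. These are the lowest strains, and their libraries did not overlap. W303 had 95.7, 49.2, 75.2 and 142 CPM in replicates 1 to 4. BY4741 had 136, 219, 296 and 287 CPM. These strains overlapped in 1 library each, W303 replicate 4 and BY4741 replicate 1. RM11-1a had 794, 569, 6610 and 2543 CPM, the second of these in the library labelled replicate 2. Every RM11-1a library lay above every library of the other strains, and the libraries numbered from 74 were the highest. The lowest and the highest library differed 2080-fold, and 93.7% of the variance of log2 CPM lay between strains.

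HSP12 was higher in RM11-1a than in the mean of the other strains by 6.22 on the log2 scale (SE 0.396, edgeR adjusted p 2.45e-09), and by 6.55 without the library labelled replicate 2. It was lower in D273-10B, by -5.13 (SE 0.644, edgeR adjusted p 1.5e-05), and in CEN.PK2, by -3.09 (SE 0.564, edgeR adjusted p 0.00245). These calls held under all 33 alternatives, with ranges of 4.36 to 6.56 for RM11-1a, -5.42 to -4.56 for D273-10B and -3.58 to -2.83 for CEN.PK2. BY4741 was higher by 1.86 (SE 0.403, edgeR adjusted p 0.0114), a call lost without BY4741 replicate 3 or without replicate 4. W303 differed from the mean of the others by 0.14 (edgeR adjusted p 0.863).

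Between neighbours in the order of strains, HSP12 differed past the threshold for CEN.PK2 and W303 (log2 fold change 2.58, SE 0.605, edgeR adjusted p 0.0244) and for BY4741 and RM11-1a (3.49, SE 0.621, edgeR adjusted p 0.0029). The first call was lost when CEN.PK2 replicate 1 or 3 or W303 replicate 1 or 4 was left out. The second was lost when the libraries numbered from 74 were left out, at 1.54 (edgeR adjusted p 0.16), with the library series as a block, at 1.96 (edgeR adjusted p 0.0575), and with that block and the length offset. HSP12 was not past the threshold for D273-10B and CEN.PK2 (-1.64 in D273-10B, edgeR adjusted p 0.112) nor for W303 and BY4741 (-1.37 in W303, edgeR adjusted p 0.238). Between the ends of the order, RM11-1a and D273-10B, the fitted difference was 540-fold. It was 683-fold leaving out the library labelled RM11-1a replicate 2, 268-fold without RM11-1a replicate 3 and 141-fold without the libraries numbered from 74, and past the threshold in all 33 alternatives. RM11-1a exceeded BY4741 by 3.82 leaving out the library labelled replicate 2, and by 2.47 without replicate 3, both past the threshold. Within the libraries numbered from 66, RM11-1a exceeded W303 (-3.23 in W303, SE 0.37, edgeR adjusted p 0.0134). Within that series RM11-1a was above BY4741 by 1.204 (SE 0.344), which was not past the threshold (edgeR adjusted p 0.365), in a comparison that called 0 of 6026 genes (556 at an unadjusted p under 0.05) and includes the library labelled RM11-1a replicate 2. Within the libraries numbered from 69, HSP12 was lower than in BY4741 by -3.77 in CEN.PK2 (edgeR adjusted p 0.0066) and by -4.97 in D273-10B (edgeR adjusted p 0.000129).

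**Figure D2:**
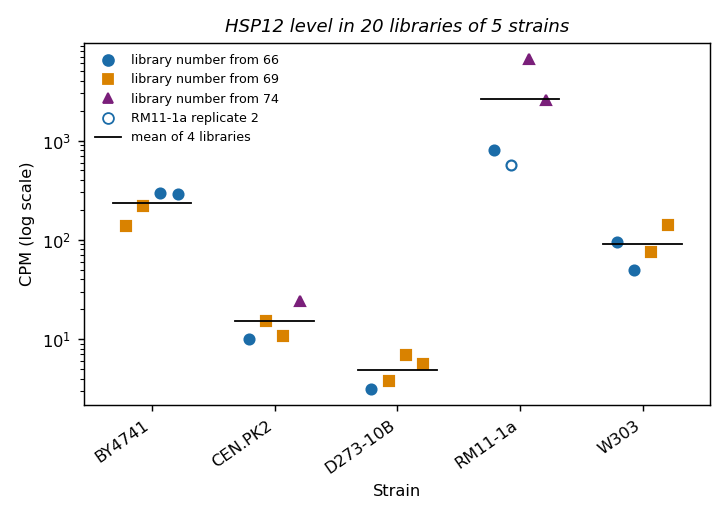
HSP12 level in CPM on a log axis for the 20 libraries, by strain. Marker shapes give the library number series, the open circle is the library labelled RM11-1a replicate 2, and bars are strain means (n = 4). D273-10B sits at 3.17 to 6.97 CPM and RM11-1a at 569 to 6610 CPM.

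By strain means, HSP26 had the same order as HSP12, while HSP31, HSP42 and HSP30 had other orders, and RM11-1a had the highest mean of each. Without RM11-1a replicate 3 its means were 31.2 CPM for HSP26, 76.03 CPM for HSP30 and 108 CPM for HSP31, below the 32.7 CPM of BY4741, the 88.4 CPM of W303 and the 165 CPM of D273-10B. HSP31 (YDR533C), whose product belongs to the DJ-1 family and acts on methylglyoxal, had 33.2, 35.5, 48.8 and 43.1 CPM in BY4741 and 50.9, 32.4, 51.8 and 47.7 CPM in W303. CEN.PK2 had 77.6, 54.3, 69.4 and 95.8 CPM, D273-10B had 107, 199, 167 and 188 CPM, and RM11-1a had 91.0, 71.5, 354 and 163 CPM. BY4741 and W303 lay below all libraries of the other 3 strains, and D273-10B lay above all CEN.PK2 libraries, while RM11-1a spanned both. HSP31 was higher in D273-10B by 1.25 (SE 0.279, edgeR adjusted p 0.0034), a call that held under all 33 alternatives. It was lower in BY4741 by -1.30 (SE 0.332, edgeR adjusted p 0.03), a call lost without any of the 4 BY4741 libraries and without W303 replicate 3. D273-10B exceeded BY4741 by 2.04 (SE 0.397, edgeR adjusted p 0.00242) and by 2.47 within the libraries numbered from 69.

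HSP42 (YDR171W) and HSP26 (YBR072W) encode the alpha-crystallin type small heat shock proteins of the cytosol, which hold unfolded proteins and gather them in assemblies. HSP42 had 166, 90.2, 366 and 330 CPM in RM11-1a, where replicates 3 and 4 were the highest of all 20 libraries and the library labelled replicate 2 lay within the range of the other strains. In BY4741 it had 89.9 and 108 CPM in the libraries numbered from 69, and 49.7 and 43.0 CPM in those numbered from 66. In W303 it had 73.5, 53.4, 101 and 84.9 CPM. CEN.PK2 had 93.9, 148, 144 and 67.5 CPM and D273-10B had 144, 132, 76.4 and 122 CPM, which overlapped each other and both strains before. HSP42 was higher in RM11-1a by 1.35 (SE 0.295, edgeR adjusted p 0.00463), a call lost without RM11-1a replicate 3 (1.07, edgeR adjusted p 0.0688). That call was also lost with the series as a block, with RM11-1a replicates 3 and 4 summed, and without the libraries numbered from 74. HSP26 had 9.40, 10.9, 18.8 and 16.4 CPM in D273-10B and 29.8, 24.4, 41.1 and 35.4 CPM in BY4741, which did not overlap. CEN.PK2 had 11.2, 26.8, 33.04 and 22.9 CPM, W303 had 29.3, 14.6, 39.6 and 38.7 CPM, and RM11-1a had 8.14, 38.6, 83.5 and 46.8 CPM. These 3 strains each overlapped D273-10B. It was lower in D273-10B by -1.20 (SE 0.415, edgeR adjusted p 0.0496), a value at the threshold that was lost in 21 of 33 alternatives, and its test among the 5 strains was not past the threshold (edgeR adjusted p 0.0907).

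HSP30 (YCR021C) encodes a stress-induced protein of the plasma membrane that restrains the proton pump Pma1. It had 26.4, 11.0, 8.41 and 15.2 CPM in D273-10B. In BY4741 it had 36.9 and 34.4 CPM in the libraries numbered from 69, and 11.9 and 10.9 CPM in those numbered from 66. W303 had 65.5, 53.0, 174 and 61.4 CPM, CEN.PK2 had 30.3, 111, 131 and 44.4 CPM, and RM11-1a had 49.7, 21.2, 177 and 157 CPM. All W303 and CEN.PK2 libraries lay above all D273-10B libraries, and RM11-1a libraries ranged from below the W303 libraries to above them. HSP30 was lower in D273-10B by -2.06 (SE 0.572, edgeR adjusted p 0.0156), a call lost without D273-10B replicate 2 or without replicate 3. Within the libraries numbered from 69, D273-10B differed from BY4741 by -1.59 (edgeR adjusted p 0.0298). W303 exceeded BY4741 by 2.36 within those numbered from 66 (edgeR adjusted p 0.046), and by 1.755 within those from 69, not past the threshold (edgeR adjusted p 0.118).

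BTN2 (YGR142W) and CUR1 (YPR158W) are paralogues whose proteins sort misfolded proteins and prions to deposits in the cell. BTN2 had 47.1, 79.8, 108.9 and 107 CPM in CEN.PK2 and 3.41, 8.40, 9.20 and 10.3 CPM in BY4741. W303 had 30.1, 24.01, 18.9 and 10.7 CPM, RM11-1a had 13.7, 12.5, 40.6 and 30.2 CPM, and D273-10B had 61.9, 11.6, 16.8 and 19.7 CPM. BY4741 lay below every other library, and CEN.PK2 lay above every other library except D273-10B replicate 1, which exceeded the lowest CEN.PK2 library. BTN2 was higher in CEN.PK2 by 2.23 (SE 0.35, edgeR adjusted p 0.00056), a call that held under all 33 alternatives. It was lower in BY4741 by -2.06 (SE 0.466, edgeR adjusted p 0.0146), a call that 3 of the 4 fits without a BY4741 library lost, with an edgeR adjusted p of up to 0.0801. The difference of CEN.PK2 from BY4741 was 3.43 (SE 0.553, edgeR adjusted p 0.00111) over all libraries and 4.04 within those numbered from 69.

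CUR1 had 9.92, 13.4, 19.4 and 14.7 CPM in BY4741 and 27.6, 24.7, 24.8 and 26.8 CPM in W303. D273-10B had 17.5, 16.8, 21.6 and 31.6 CPM. CEN.PK2 had 32.5, 34.5, 42.5 and 55.2 CPM, and RM11-1a had 37.6, 31.2, 84.6 and 65.7 CPM. BY4741 overlapped only D273-10B, and all CEN.PK2 libraries lay above those of BY4741, W303 and D273-10B. CUR1 was lower in BY4741 by -1.22 (SE 0.274, edgeR adjusted p 0.0142), and 3 of the 4 fits without a BY4741 library lost that call. CEN.PK2 exceeded BY4741 by 1.52 (SE 0.324, edgeR adjusted p 0.00786), a call that held under all 33 alternatives. Both paralogues were thus lowest by mean in BY4741, while the highest mean was in CEN.PK2 for BTN2 and in RM11-1a for CUR1.

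HSP104 (YLL026W, chromosome XII, 88623 to 91349) encodes the cytosolic disaggregase that pulls proteins out of aggregates, and HSP78 (YDR258C) its mitochondrial counterpart. HSP104 had 62.2, 123, 80.1 and 27.99 CPM in D273-10B, of which replicate 4 lay within the range of the other strains. The other 16 libraries ran from 14.2 CPM in RM11-1a replicate 1 to 53.7 CPM in CEN.PK2 replicate 4. HSP104 was higher in D273-10B by 1.26 (SE 0.295, edgeR adjusted p 0.00484), but by 0.89 without D273-10B replicate 2, where the call was lost (edgeR adjusted p 0.0892). HSP78 was at 8.78 to 34.9 CPM in all libraries and was not past the threshold (edgeR adjusted p 0.525).

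Among the cytosolic HSP70 genes, SSA1 and SSA2 are constitutive, and SSA3 and SSA4 are made on stress. SSA3 (YBL075C) was scarce, with 37, 215, 64 and 22 counts in D273-10B, or 4.35, 20.3, 7.08 and 4.701 CPM. The other 16 libraries ran from 1.75 to 4.63 CPM, and the D273-10B libraries all exceeded those of BY4741, W303 and RM11-1a. SSA3 was higher in D273-10B by 1.51 (SE 0.295, edgeR adjusted p 0.00121), and by 0.75 without D273-10B replicate 2, where the call was lost (edgeR adjusted p 0.0769). SSA4 was at 7.69 to 38.8 CPM and was not past the threshold (edgeR adjusted p 0.193). The log2 ratio of SSA3 to SSA4 was -0.59 ± 0.946 (SD, n = 4) in D273-10B and -2.23 ± 0.576 (SD, n = 16) in the other libraries, a difference of 1.65 (exact two-sided permutation test, p 0.000826, adjusted p 0.0206 over 25 tests). The D273-10B libraries ran from -1.73 to 0.58 and the others from -3.36 to -1.31, so they overlapped. This ratio was not tested without D273-10B replicate 2.

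HSF1 (YGL073W) itself encodes the heat shock transcription factor. It had 32.1, 43.6, 31.6 and 24.4 CPM in D273-10B, against 15.8 to 34.6 CPM in the other 16 libraries. It was higher in D273-10B by 0.67 (SE 0.186, edgeR adjusted p 0.0154). The call was lost without D273-10B replicate 2, at 0.50 (edgeR adjusted p 0.134), and with an offset for each library's trend with gene length, at 0.40 (edgeR adjusted p 0.152). HSF1 is one of the longer genes here, with 2502 bases of coding length.

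**Figure D3:**
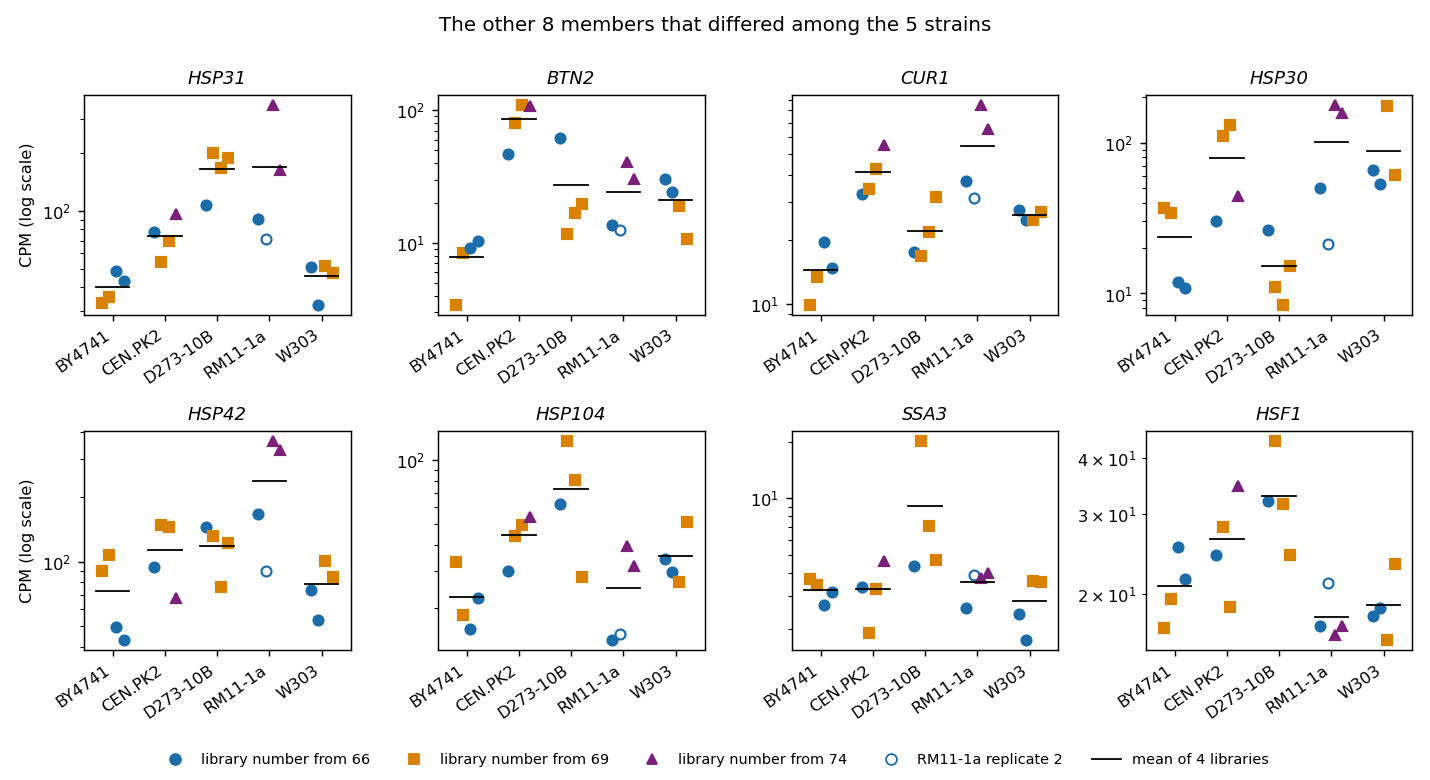
Level in CPM on log axes of the other 8 genes that differed among the strains, 1 panel per gene, with the 4 libraries of each strain as points and strain means as bars. Shapes give the library number series and the open circle the library labelled RM11-1a replicate 2. BTN2 runs from 3.41 CPM in BY4741 to 108.9 CPM in CEN.PK2, and RM11-1a libraries numbered from 74 are the highest points for HSP42 and CUR1.

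By strain, D273-10B had 7 of the 34 genes past the threshold against the mean of the other strains, where 18.1% of all genes were. HSP31, HSP104, SSA3 and HSF1 were higher and HSP12, HSP26 and HSP30 were lower. Without D273-10B replicate 1 the count was 13, and without D273-10B replicate 2 it was 2. The median log2 fold change of the 34 was -0.03, and that of all genes 0.11.

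RM11-1a had 5 genes past the threshold, all higher, where 10.9% of all genes were called and 6.39% were called as higher. They were HSP12, HSP42, HSP31, CUR1 and SSE2, with log2 fold changes of 6.22, 1.35, 1.302, 1.19 and 1.01. Leaving out the library labelled RM11-1a replicate 2, they were 6.55, 1.62, 1.56, 1.38 and 1.21, all past the threshold, and 6 genes were called. Without the 3 libraries numbered from 74 they were 4.36, 0.41, 0.28, 0.56 and 0.05, and HSP12 alone kept its call. RM11-1a replicates 3 and 4 form 2 of these 3 libraries, so for the rise of HSP42, HSP31, CUR1 and SSE2 over the mean of the other strains, strain and library series cannot be fully told apart. Within the libraries numbered from 66, which include the library labelled RM11-1a replicate 2, RM11-1a differed from BY4741 by 1.45 for HSP42, 1.00 for CUR1, 0.80 for HSP31 and -0.15 for SSE2, in the fit that called 0 of 6026 genes by edgeR (556 at an unadjusted p under 0.05). With the series as a block, CUR1 stayed higher in RM11-1a than in BY4741, by 1.37 (edgeR adjusted p 0.0263). That call was lost without the libraries numbered from 74 (edgeR adjusted p 0.121). SSE2 (YBR169C), which encodes the inducible HSP110 nucleotide exchange factor, had 49.9 and 35.8 CPM in those libraries and 12.05 and 16.1 CPM in RM11-1a replicates 1 and 2. In the other strains it ran from 9.91 to 35.6 CPM, the highest in BY4741 replicate 1. Its test among the 5 strains was not past the threshold (edgeR adjusted p 0.052). The call count was 2 without RM11-1a replicate 3 and 8 without RM11-1a replicate 1.

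BY4741 had 4 genes past the threshold, where 4.84% of all genes were: HSP12 higher, and HSP31, BTN2 and CUR1 lower. The count was 1 without any single BY4741 library. CEN.PK2 had 2, HSP12 lower and BTN2 higher, where 4.87% of all genes were past it. W303 had 0 by the edgeR test (7 at an unadjusted p under 0.05, and 3 past the threshold by DESeq2), where 4.12% of all genes were past it. The W303 count was 6 without D273-10B replicate 1, 2 without CEN.PK2 replicate 2, and 1 without RM11-1a replicate 1 or the library labelled RM11-1a replicate 2. Of pairs of strains, W303 against BY4741 had 0 of the 34 past the threshold by edgeR (5 at an unadjusted p under 0.05, 1 past the threshold by DESeq2, and 2.11% of all genes past it by edgeR) and RM11-1a against D273-10B had 8 (18.4% of all genes). That count was 9 leaving out the library labelled RM11-1a replicate 2, 4 without RM11-1a replicate 3 or replicate 4, 3 without D273-10B replicate 2 and 3 with the series as a block, and 2 without the libraries numbered from 74.

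Some abundant constitutive chaperones varied widely between libraries, though not HSC82, which spanned 2.9-fold. SSA1 and SSA2, SSB1 and SSB2 of the ribosome, and the mitochondrial HSP60 spanned 10.6-fold to 16.8-fold over the 20 libraries. Of their variance, 18.3% to 28.7% lay between strains. This share was not adjusted for the number of strains, so it is positive even where strains do not differ. SSB1 had 2261 CPM in D273-10B replicate 1 and 134 CPM in CEN.PK2 replicate 4, with 150 CPM in D273-10B replicate 3. The summed level of SSA1, SSA2, SSB1 and SSB2 was 7005 to 9276 CPM in W303, 4061 to 6553 CPM in BY4741, 1421 to 4604 CPM in RM11-1a, 1097 to 8304 CPM in CEN.PK2 and 1322 to 12360 CPM in D273-10B. W303 lay above BY4741 and RM11-1a without overlap, but none of the 4 genes was past the threshold in W303 against the mean of the other strains. Within the libraries numbered from 69, W303 exceeded D273-10B past the threshold for SSB1 (2.225), SSB2 (1.983) and SSA2 (1.461). SSA1 was not past it (1.032, edgeR adjusted p 0.0912), and 1371 of 5953 genes were. None of the 4 genes was past it in W303 against BY4741 or CEN.PK2 within that series. The library with the steepest rise of levels with gene length, D273-10B replicate 1 at 0.42 log2 units per doubling, had the highest sum, and the library with the steepest fall, CEN.PK2 replicate 4 at -0.33, had the lowest. The slopes of W303, 0.09 to 0.20, also lay above those of RM11-1a, -0.32 to -0.09, without overlap. Those of BY4741, -0.07 to 0.24, overlapped both. With the length offset, alone or with either block, none of the 4 genes was past the threshold among the strains. How large a part the trend with gene length has in these levels was not tested. Reads of SSA1 and SSA2 cannot be fully separated, since 51.9% and 52.2% of their 75-base windows occur in both, and SSB1 and SSB2 share 36.3%.

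**Figure D4:**
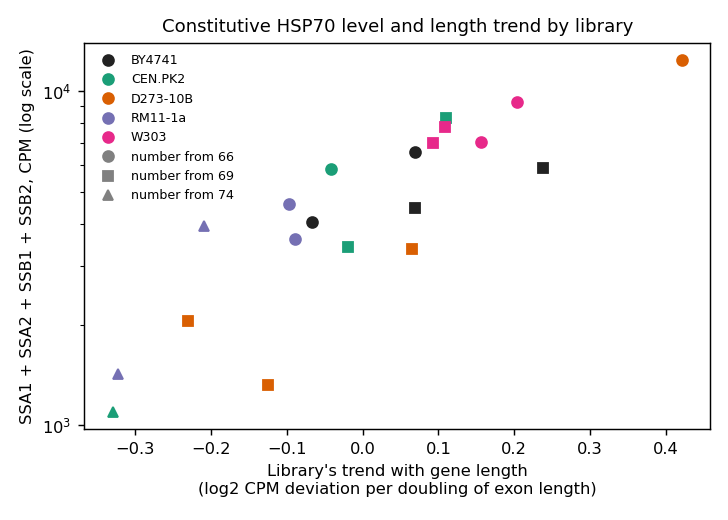
Summed level of SSA1, SSA2, SSB1 and SSB2 in CPM (log axis) against the slope of each library's levels with gene length, 1 point per library, coloured by strain, with shapes for the library number series. The sum runs from 1097 CPM at a slope of -0.33 to 12360 CPM at a slope of 0.42, and the D273-10B libraries span 1322 to 12360 CPM.

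The HSP90 genes, whose product matures kinases and receptors, are HSC82 (YMR186W, constitutive) and HSP82 (YPL240C, inducible). HSC82 was at 887 to 2576 CPM and HSP82 at 61.2 to 332 CPM, so HSC82 was the higher in all libraries. Neither was past the threshold among the strains (edgeR adjusted p 0.16 and 0.0518). With DESeq2, HSP82 was past it, as it was in 11 of 33 alternatives. Of the 25 comparisons of a log2 ratio within a pair (HSP82/HSC82, SSA1/SSA2, SSA3/SSA4, SSB1/SSB2 and SSE1/SSE2, each strain against the other 16 libraries), only SSA3/SSA4 in D273-10B was past the threshold by the exact permutation test. The next smallest p was 0.0169, for SSE1/SSE2 in RM11-1a (3.16 ± 1.75, SD, n = 4, against 4.76 ± 0.893, SD, n = 16, exact permutation test, adjusted p 0.167). That difference, -1.60, was -2.08 leaving out the library labelled RM11-1a replicate 2 (exact permutation test, adjusted p 0.116). The HSP90 co-chaperones STI1, CPR6, AHA1, CDC37 and SBA1, and FES1, the exchange factor of cytosolic HSP70, had strain means within 1.51-fold to 1.99-fold of each other. None of these was past the threshold among the strains in the main edgeR fit, while SBA1 and FES1 were by DESeq2. By edgeR, FES1 was past it with the length offset, and STI1 with that offset and the series block. Of the 33 alternatives, 5 called FES1, 3 called SBA1 and 2 called STI1. FES1 was higher in CEN.PK2 than in BY4741 by 0.82 (SE 0.243, edgeR adjusted p 0.0476), but 21 of 33 alternatives ended that call.

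Of the organelle chaperones, HSP10, the co-chaperonin of mitochondrial HSP60, was the most abundant of the 34 per kilobase, at a median of 3293 CPM. HSP10 was not past the threshold among the strains in the main edgeR fit (edgeR adjusted p 0.0655) but was by DESeq2. It was called higher in D273-10B than in BY4741 by edgeR, a call lost in 25 of 33 alternatives. It ran from 521 to 3238 CPM, both in D273-10B (replicates 1 and 4), and HSP60 ran the other way in those libraries, at 1146 and 279 CPM. HSP10 has an exon length of 321 bases and HSP60 of 1719 bases, and the slopes with gene length of those libraries were 0.42 and -0.23. In the main edgeR fit, SSC1 (the mitochondrial HSP70), MDJ1 (its J protein) and KAR2 (the HSP70 of the endoplasmic reticulum) were not past the threshold among the strains. The J proteins YDJ1, SIS1 and APJ1, which deliver clients to HSP70, were not past it either. MDJ1 and SIS1 were each past it in 5 of 33 alternatives, the length offset among them, and YDJ1 was in 1.

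Other chaperone genes outside the 34 were counted by list, against the same 28.4% of all genes. Among the 5 strains, 1 of 8 genes of the TRiC chaperonin, 0 of 6 of prefoldin, 0 of 10 of endoplasmic reticulum folding, 2 of 5 ribosome-associated genes, 3 of 6 mitochondrial chaperones, 3 of 15 cytosolic co-chaperones and 1 of 6 stress regulators differed by edgeR. Of the prefoldin genes 3 had an unadjusted p under 0.05 and 2 were past the threshold by DESeq2, and of the endoplasmic reticulum genes 1 and 2. DESeq2 put all 6 mitochondrial chaperones, 4 cytosolic co-chaperones and 2 stress regulators past the threshold. The 28.4% is the share of all genes by edgeR. The share by DESeq2 is not given here, so the DESeq2 counts cannot be set against it. The TRiC gene was CCT6, which was lower in D273-10B by -1.78 and in RM11-1a by -2.13 and higher in BY4741 and W303. CCT6 had 83.7 CPM in the library labelled RM11-1a replicate 2 and 15.3 to 16.4 CPM in the other RM11-1a libraries, and leaving that library out the difference was -3.18 (edgeR adjusted p 0.00113). The RM11-1a call of CCT6 was lost without RM11-1a replicate 3, at -1.90 (edgeR adjusted p 0.124). It was also lost with the series as a block, at -1.52 (edgeR adjusted p 0.166). Without the libraries numbered from 74 it was lost too, at -1.615 (edgeR adjusted p 0.448). ECM10, a mitochondrial HSP70, was lower in BY4741 by -2.01 (SE 0.332, edgeR adjusted p 0.00152) and higher in CEN.PK2 by 1.16. HCH1, an activator of HSP90, and the J protein gene JJJ3 were higher in CEN.PK2, by 1.16 and 1.65. By edgeR, SKN7 was past the threshold and MSN2 and MSN4 were not, while by DESeq2 both SKN7 and MSN4 were past it (DESeq2 adjusted p 0.0155 and 0.0241).

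HSP32, HSP33 and SNO4, subtelomeric relatives of HSP31, were all past the threshold, and all higher in D273-10B, by 1.43, 1.32 and 1.70. Their levels were 0.166 to 7.48 CPM, and 68.8% to 100% of their 75-base windows occur at another of the 3 genes, so reads cannot be told apart between them and their values are uncertain. HSP31 shares none of its windows with them.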

How the data were processed

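Messenger RNA libraries were made by the Smart-seq2 protocol (full-length cDNA, amplified by PCR) and read as 75-base single-end reads, per the labels' protocols. The authors deposited raw read counts by gene and library, under Ensembl gene identifiers per the file header. STAR and Salmon are named in the submitters' processing notes, and their roles, versions and strand setting are not given in the sources used here. Columns were matched to samples by library number. Column names give 2 RM11-1a libraries another replicate number than their sample titles, which were followed. By column name, RM11-1a replicates 1 and 2 are both replicate 1, and RM11-1a replicates 3 and 4 are both replicate 3. Whether libraries that share a number came from 1 culture is not stated.

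Symbols, positions, exon lengths and promoter windows came from the RefSeq annotation and sequence of R64, which matched 6047 of 7127 identifiers. Ensembl identifiers were taken to be on that build. Reading frames on the opposite strand that this annotation does not hold were not checked.

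Tests used edgeR 4.0.16 (R 4.3.3). filterByExpr by strain left 6119 genes. After TMM scaling, a quasi-likelihood model of strain alone was fitted over the 20 libraries (15 residual degrees of freedom). Contrasts were any difference among the 5 strains, a strain minus the other strains' mean, and the 10 pairs, with Benjamini-Hochberg adjustment over all genes and a threshold of 0.05. Standard errors came from the F statistic. Ratios of paralogues used counts plus 0.5. The procedure was tested on simulated data. Genes and lists were chosen with earlier results of these data known. Library by library values were given for genes past the threshold among the strains, and for HSP26, which passed in 1 strain. In the other lists at most 4 genes were named.

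Also tried were the DESeq2 1.42.0 test, its size factors in edgeR, filters of none and of 10 CPM on average, the replicate number or the library number series as a block, a smooth offset for gene length (4 spline degrees of freedom, centred, 94.2% of genes with a length) alone or with either block, summed paralogues, and leaving out each library. Leaving out the libraries numbered from 74, summing RM11-1a replicates 3 and 4, and the length offset without the library labelled RM11-1a replicate 2 were added after the data were seen. The 2 summed libraries share a replicate number in their column names. Reads have no molecular identifiers, so PCR copies are counted separately. A count of 3 in a library, taken as its smallest readable level, is 0.12 to 1.92 CPM. It covers counting error only.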

Additional observations from a re-analysis of the deposited data

Results flagged for a closer look

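In 3 of 55 groups of 4 libraries, over 11 genes, a library stood far from the other 3. Chance gives about 1 in 20 such groups. HSP30 was at 174 CPM in W303 replicate 3 and at 53.0 to 65.5 CPM in the other W303 libraries. BTN2 was at 61.9 CPM in D273-10B replicate 1 and at 11.6 to 19.7 CPM in the other D273-10B libraries. HSF1 was at 21.1 CPM in the library labelled RM11-1a replicate 2, whose HO counts go against its label, and at 16.1 to 16.96 CPM in the other RM11-1a libraries.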

How the results depend on the processing

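No direction reversed in 1810 refitted values of 55 called differences of single genes, over 33 alternatives. The call was kept in 1534 and lost in 276, and 15 of the 55 differences kept it in every alternative. Among the 5 strains, 9 genes were past the threshold, 6 to 21 when single libraries were left out, 15 with DESeq2 and 14 with the length offset. With RM11-1a replicates 3 and 4 summed it was 7. The shares of all genes called in these refits are not given here, so the counts cannot be set against them. In BY4741 the count of 4 ranged from 1 to 4 without single libraries and was 7 with the length offset, leaving out the library labelled RM11-1a replicate 2. In CEN.PK2 the count of 2 was 2 to 3 without single libraries, 6 with the length offset, 5 with that offset and the replicate block, 8 with it and the series block, and 7 with it when the library labelled RM11-1a replicate 2 was left out. In D273-10B the count of 7 ranged from 2 to 13 without single libraries. In RM11-1a the count of 5 ranged from 2 to 8, and was 1 with the series block, 2 with that block and the length offset, 1 without the libraries numbered from 74 and 3 with replicates 3 and 4 summed. In W303 the count of 0 ranged up to 6 without single libraries (lowest 0), and was 3 with DESeq2, 1 with the length offset alone or with the series block, and 2 with that offset when that RM11-1a library was left out. The cause of these changes was not tested. Replicate numbers did not pair the libraries: same-numbered libraries of different strains had correlations of deviations of -0.37 to 0.39, with 13 of 40 over 0.1. Libraries of the same number series had a median of 0.14, with 31 of 57 over 0.1, and those of different series -0.07, with 26 of 103. The series block took HSP42 from the genes that differed among the strains. With the replicate number as a block, 9 genes differed among the strains, the same genes. The difference of 1.65 in the SSA3/SSA4 ratio in D273-10B was no longer past the threshold under the replicate block (exact permutation test within replicate numbers, adjusted p 0.08), and no other ratio changed its call. The scarcest genes are limited by depth: SSA3 had 3 counts in CEN.PK2 replicate 2.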
